A study of Mus musculus with 76 samples.

Results

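The markers of decidua and uterine stroma described here are 8 genes, read by symbol from the 4 deposited count tables: Col3a1, Col1a1, Wnt4, Prl8a2, Bmp2, Hand2, Pgr and Dcn. All 8 were found, among 48321 genes in each table. The tables hold polyadenylated RNA from mice at 4 stages: oocytes, 2-cell embryos and blastocysts, each taken singly, and, at embryonic day 6.5, extraembryonic ectoderm (ExE, the trophoblast tissue that borders the epiblast). Every library is labelled as an Ezhip maternal knockout (matKO) or as wild type (WT), 76 in all. Ezhip encodes an inhibitor of the histone methyltransferase complex PRC2. Oocytes comprised 4 matKO and 3 WT libraries, all labelled female. The 2-cell embryos comprised 12 matKO libraries (6 female, 6 male) and 11 WT libraries (5 female, 6 male), and the blastocysts 14 matKO libraries (7 female, 7 male) and 14 WT libraries (6 female, 8 male). ExE comprised 8 matKO libraries (5 female, 3 male) and 10 WT libraries (6 female, 4 male). The labels name neither the strain, the extent of the deletion, the father's genotype, the litter nor the age of the mothers.

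In the mouse, uterine stromal cells around an implanting embryo differentiate into decidua under progesterone. The hormone acts through its nuclear receptor, the product of Pgr, in a pathway that includes the transcription factor HAND2 and the secreted signals BMP2 and WNT4. Decidual cells secrete prolactin-family hormones, among them the product of Prl8a2, which rodent trophoblast also makes. The fibrillar collagens encoded by Col1a1 and Col3a1, and decorin, the collagen-binding proteoglycan encoded by Dcn, are made by stromal fibroblasts of many tissues. None of these genes is restricted to the uterus: Bmp2 and Hand2 also act in the early embryo.

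**Figure D1:**
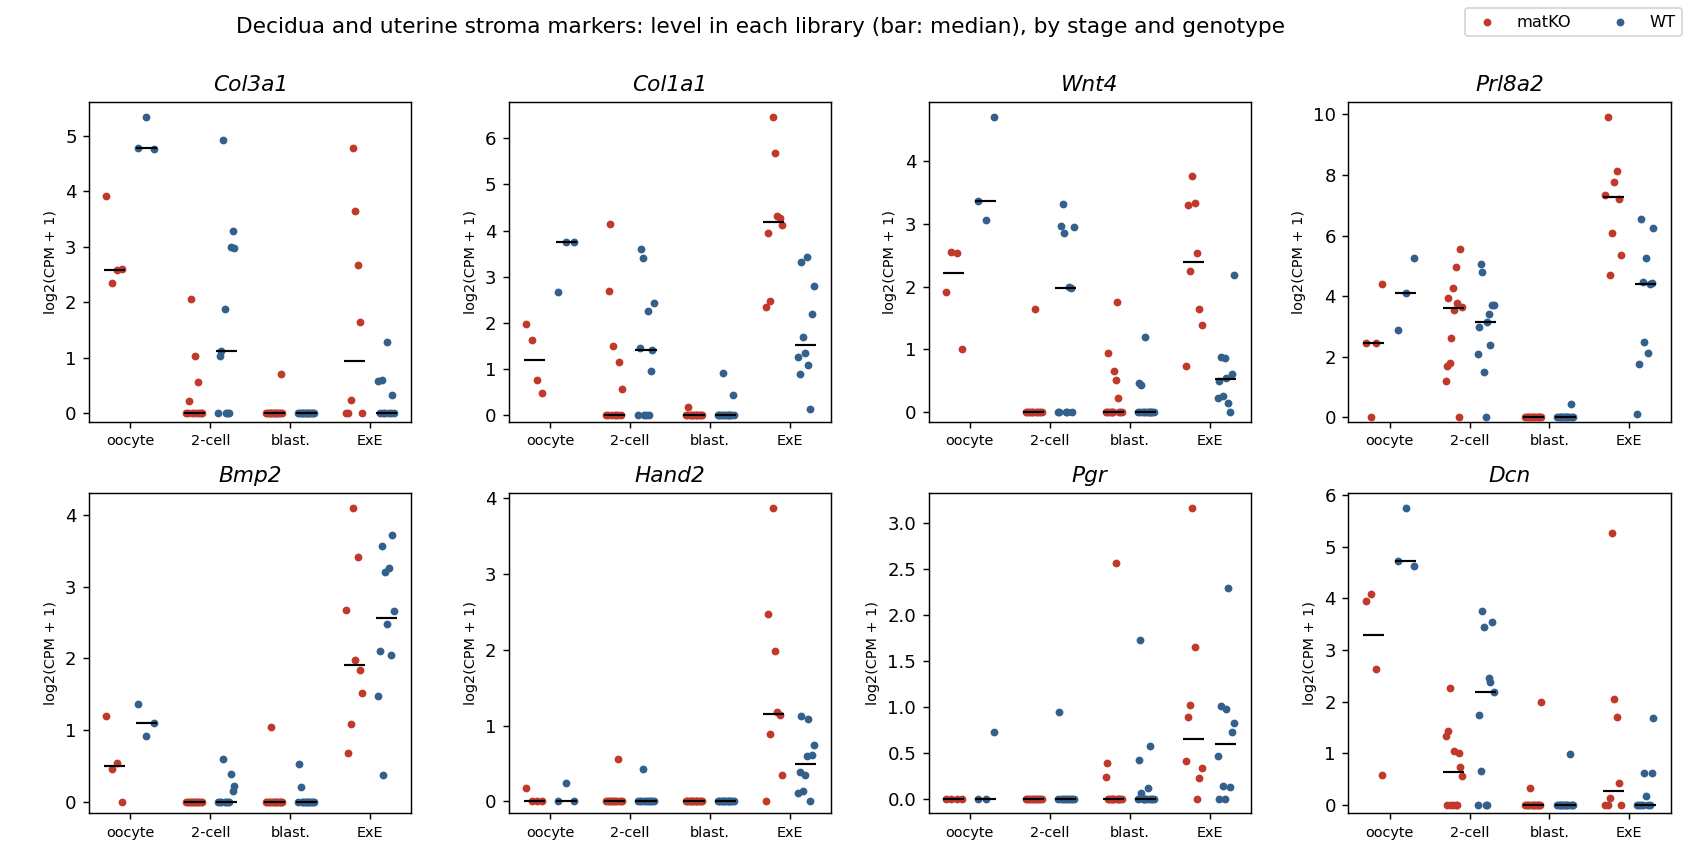
Level of each marker in each library, as log2(CPM + 1) on the vertical axis, by stage on the horizontal axis, with matKO in red left of WT in blue and a black bar at the group median. In ExE, 6 of 8 matKO libraries lie above every WT library for Col1a1 and 5 of 8 for Wnt4, whereas in oocytes all 4 matKO libraries lie below every WT library for Col3a1, Col1a1, Wnt4 and Dcn.

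Levels are given in CPM, the counts of a gene scaled to the same total in each library, after TMM, an adjustment for differences in RNA composition between libraries. The targeted gene, listed in the tables as AU022751, had between 0.116 and 0.569 CPM in the 4 matKO oocytes, against 932 to 1508 CPM in the 3 WT oocytes, which is the direction of the labels. In 2-cell embryos it had at most 18.9 CPM in matKO libraries and at least 38.6 CPM in WT libraries. It was near 0 in most blastocysts and in ExE of both genotypes (at most 0.847 CPM in matKO and 1.11 CPM in WT ExE), so it does not check the labels there. Total counts ran from 1476150 to 26484630 in matKO and from 1049224 to 14127560 in WT libraries of oocytes and 2-cell embryos, and from 2736211 to 26674539 in matKO and from 4928566 to 31985958 in WT libraries of blastocysts and ExE. All matKO ExE libraries have identifiers with the prefix D707T and all WT ExE libraries have D1042C, so an effect of the prefix and one of genotype cannot be told apart there. Identifier numbers also separate the genotypes in oocytes and 2-cell embryos. Since litters are unknown, p-values rest on how much one library differs from another, which may in part be technical.

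In ExE, 3 matKO libraries and 1 WT library stood apart in summed levels of a marker list. The matKO library female 2 had a sum of 8440 CPM over 9 genes of ectoplacental cone and giant cells, against a median of 1450 CPM in matKO and 357 CPM in WT libraries. The matKO library male 1 had 15900 CPM over 11 genes of primitive endoderm derivatives, with medians of 3490 CPM in matKO and 2620 CPM in WT. The matKO library female 4 had 202 CPM over the markers without Prl8a2, with medians of 28.1 CPM in matKO and 13.1 CPM in WT. The WT library male 1 had 634 CPM over 8 genes of early mesoderm, with medians of 70 CPM in matKO and 66.1 CPM in WT. Fits without the 3 matKO libraries are given beside the ExE results, and fits without WT male 1 alone where they change a call. These comparisons were chosen after the data had been seen. Female 4 of matKO was picked by the markers' own sum, and no WT library was left out by that sum. Female 2 of matKO was also the highest library in Prl8a2. Fits without these libraries thus favour smaller marker changes in advance, and calls lost there are a description. The defining genes of ExE were present in both genotypes, with sums over 8 genes of 196 to 1120 CPM in matKO and 409 to 1190 CPM in WT libraries. In such pieces of tissue, fewer cells of a type and less RNA per cell cannot be told apart.

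On build mm10, all 8 genes lie on the plus strand. Wnt4 (ENSMUSG00000036856) lies on chromosome 4 from 137277489 to 137299726, with 5 exon blocks. Bmp2 (ENSMUSG00000027358) lies on chromosome 2 from 133552159 to 133562885, with 3 exon blocks. Pgr (ENSMUSG00000031870) is on chromosome 9 from 8899833 to 8968611, and Hand2 (ENSMUSG00000038193) on chromosome 8 from 57320983 to 57324633. Col3a1 (ENSMUSG00000026043) spans positions 45311538 to 45349706 of chromosome 1 in 50 exon blocks, and Col1a1 (ENSMUSG00000001506) positions 94936224 to 94953042 of chromosome 11 in 52. Dcn (ENSMUSG00000019929) spans positions 97479500 to 97518162 of chromosome 10, and Prl8a2 (ENSMUSG00000018259) positions 27345683 to 27354216 of chromosome 13. In the tables, 443 exonic bases of Hand2 are shared with the antisense gene Gm28063 and 141 of Col3a1 with AC125167.1 on the same strand. How strand was treated in counting is not given here, so part of the counts of these genes is uncertain.

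RefSeq promoter sequences of build GRCm38.p6, which covers 250 bases before and 50 bases after the start, were matched by symbol for 4 of the 8 genes (Col3a1, Wnt4, Hand2 and Pgr). Shown, as sequence context, are the 3 of these that rose in matKO ExE. They are chr1:45311288-45311587 for Col3a1, chr4:137277385-137277684 for Wnt4 and chr8:57320733-57321032 for Hand2, each on the plus strand, 5′ to 3′. Capitals mark matches on either strand to CANNTG (E-box, the kind of sequence that HAND2 and related factors bind), GGGCGG (GC box), AGAACA (half-site of steroid receptors), CCAAT (a promoter element named after its letters) or TATAAA (the classic core element), and adjoining or overlapping matches run together.
Col3a1: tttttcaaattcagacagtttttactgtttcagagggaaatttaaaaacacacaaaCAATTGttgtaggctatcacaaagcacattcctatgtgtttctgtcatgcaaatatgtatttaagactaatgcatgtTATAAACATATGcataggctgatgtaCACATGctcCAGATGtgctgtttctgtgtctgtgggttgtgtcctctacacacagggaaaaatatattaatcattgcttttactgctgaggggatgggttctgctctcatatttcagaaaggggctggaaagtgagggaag
Wnt4: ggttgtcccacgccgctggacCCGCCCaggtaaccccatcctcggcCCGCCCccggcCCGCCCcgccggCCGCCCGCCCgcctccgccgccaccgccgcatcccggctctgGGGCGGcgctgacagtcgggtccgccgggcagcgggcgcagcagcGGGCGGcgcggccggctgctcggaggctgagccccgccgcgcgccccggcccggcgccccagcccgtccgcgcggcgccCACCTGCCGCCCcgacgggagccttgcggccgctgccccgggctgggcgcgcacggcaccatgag
Hand2: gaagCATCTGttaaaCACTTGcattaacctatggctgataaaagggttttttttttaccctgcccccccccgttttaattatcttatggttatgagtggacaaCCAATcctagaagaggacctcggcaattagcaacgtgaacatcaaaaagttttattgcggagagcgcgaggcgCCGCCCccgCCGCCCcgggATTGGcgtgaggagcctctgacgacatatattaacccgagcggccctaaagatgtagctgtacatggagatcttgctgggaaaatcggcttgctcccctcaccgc
The 3 promoters differ widely in composition, with 84.3% G and C bases for Wnt4, 50.3% for Hand2 and 37.7% for Col3a1. Wnt4 holds 8 GC boxes and 1 E-box, Hand2 2 GC boxes, 2 matches to CCAAT and 2 E-boxes, and Col3a1 4 E-boxes and 1 match to TATAAA. An E-box was present in all 4 matched promoters, Pgr included, and in 72.3% of 32851 promoters of the same length. AGAACA was found in 0 of the 4 and in 19% of all promoters. GGGCGG was found in 3 of the 4 and in 35.7% of all, CCAAT in 2 and in 37.4%, and TATAAA in 2 and in 13.6%.

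In ExE, 5 of the 8 markers rose in matKO and none fell, by edgeR's quasi-likelihood test with Benjamini-Hochberg adjustment over 14156 genes at a threshold of 0.05. The test called 24.9% of all genes there, 14.1% higher and 10.7% lower in matKO. The risers were the signal gene Wnt4, the transcription factor gene Hand2, both collagen genes and Prl8a2, by 5.72-fold to 22.1-fold. Dcn, Pgr and Bmp2 did not pass the test. The median log2 fold change was 2.95 over the 8 markers and -0.068 over all genes tested. Col3a1, Wnt4, Hand2 and Dcn were so low in WT that they reached the count filter, which decides the genes tested, through matKO libraries. For them a rise was favoured in advance, so this median and the lack of falling markers are a description. Without the 3 matKO libraries that stood apart, Col3a1 (log2 fold change 3.41, adjusted p = 0.0417) and Col1a1 (2.40, adjusted p = 0.0239) passed, and the other 6 markers did not. Female 4 was picked by the markers' own sum, which favoured smaller changes in advance. Of all genes, 19.4% were called without these 3 libraries, and 11.1% were called higher in matKO. Without WT male 1 as well, Col1a1 alone passed (2.29, adjusted p = 0.0418), Col3a1 had 3.28 (adjusted p = 0.0635), and 15.9% of all genes were called. Without WT male 1 alone, the same 5 markers were called as with all libraries.

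**Figure D2:**
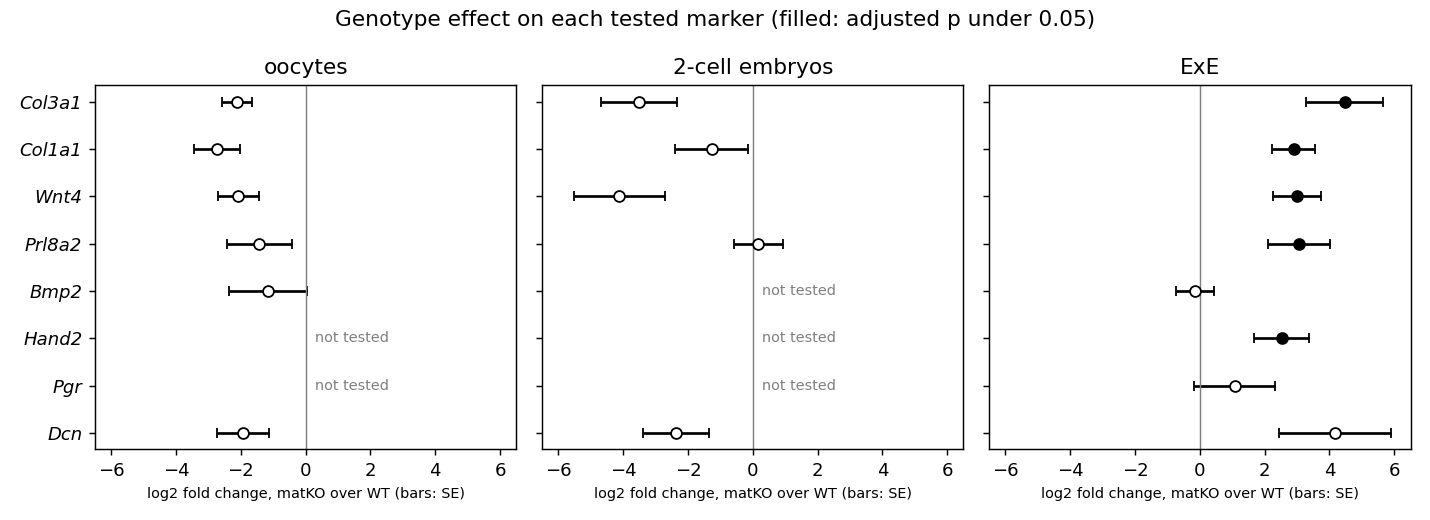
Log2 fold change of each marker, matKO over WT, on the horizontal axis with bars for the standard error, in oocytes, 2-cell embryos and ExE, with filled points where the adjusted p is under 0.05. All 5 filled points are in ExE and lie above 0, whereas the 6 markers tested in oocytes lie below 0 and are open.

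Wnt4, a secreted ligand that drives stromal cells towards decidua, had a lowest level of 0.672, a median of 4.30 and a highest level of 12.6 CPM in matKO ExE, against 0, 0.437 and 3.57 CPM in WT ExE. The groups overlapped, with 5 of 8 matKO libraries above every WT library. Its log2 fold change was 3.00 ± 0.74 (SE, adjusted p = 0.00565, edgeR). Leaving out WT male 4, the highest WT library, gave 3.86, and leaving out all 3 matKO libraries that stood apart gave 2.39 (adjusted p = 0.0511). Bmp2, the BMP ligand that stroma makes around the implanting embryo, ranged from 0.607 through a median of 2.76 to 16.1 CPM in matKO ExE and from 0.303 through 4.95 to 12.2 CPM in WT ExE. Only matKO female 4 lay above the WT range, and the log2 fold change of -0.15 ± 0.60 (adjusted p = 0.881, edgeR) did not pass the test. Leaving out the 3 matKO libraries gave -1.07 (adjusted p = 0.224, edgeR).

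Hand2, a basic helix-loop-helix transcription factor gene induced by progesterone in mouse stroma, ranged from 0 through a median of 1.23 to 13.6 CPM in matKO ExE, against 0 through 0.418 to 1.19 CPM in WT ExE. Of the matKO libraries, 5 of 8 lay above every WT library and female 1 had no count. The log2 fold change was 2.52 ± 0.85 (SE, adjusted p = 0.0331, edgeR). The call was lost without matKO female 4 (1.74, adjusted p = 0.117), and also without any one of WT female 1, 2, 4, 5 or 6, with adjusted p between 0.0533 and 0.0622. The change was 1.18 without the 3 matKO libraries (adjusted p = 0.358, edgeR). Pgr, the progesterone receptor gene, ranged from 0 through 0.598 to 8.0 CPM in matKO ExE and from 0 through 0.521 to 3.91 CPM in WT ExE. The medians were close, and without matKO female 4 the log2 fold change of 1.08 ± 1.25 (adjusted p = 0.556, edgeR) became -0.03. A fit without the 3 matKO libraries gave 0.35 (adjusted p = 0.844, edgeR).

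Col3a1 had counts in 5 of 8 matKO ExE libraries and in 4 of 10 WT ExE libraries. Its levels ran from 0 through a median of 1.16 to 26.5 CPM in matKO and from 0 through 0 to 1.43 CPM in WT. The matKO libraries female 4, female 5, male 1 and male 2 exceeded every WT library, and the other 4 lay within the WT range. The log2 fold change was 4.47 ± 1.19 (SE, adjusted p = 0.0102, edgeR), 3.62 without matKO female 4 and 5.22 without WT female 6. Col1a1, whose product forms the main fibre of connective tissue, was the more abundant collagen RNA and was found in every ExE library. It ran from 4.03 through 17.3 to 87.3 CPM in matKO and from 0.0977 through 1.89 to 9.75 CPM in WT, with 6 of 8 matKO libraries above every WT library. The log2 fold change was 2.89 ± 0.67 (SE, adjusted p = 0.00435, edgeR).

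Dcn ranged from 0 through 0.218 to 37.5 CPM in matKO ExE and from 0 through 0 to 2.23 CPM in WT ExE, and 469 of its 529 matKO counts came from female 4. Its log2 fold change of 4.17 ± 1.73 did not pass the test (adjusted p = 0.0841, edgeR). Without WT male 4, the highest WT library, it passed (5.05, adjusted p = 0.0187), and without matKO female 4 it was 1.69 (adjusted p = 0.328). With all 3 matKO libraries that stood apart left out it was 1.68 (adjusted p = 0.421, edgeR). Dcn thus had a large fitted change that depended on single libraries in both groups.

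Prl8a2 was by far the most abundant of the markers in ExE, also per length. Its mean was 255 CPM per kilobase of exon in matKO and 29.8 CPM per kilobase in WT. Next came Col1a1 in matKO, at 4.08 CPM per kilobase, and Bmp2 in WT, at 1.64 CPM per kilobase, where Col1a1 had 0.541. Prl8a2 ran from 24.8 through 153 to 963 CPM in matKO and from 0.0844 through 20.3 to 92.3 CPM in WT. The groups overlapped, with 5 of 8 matKO libraries above every WT library. The log2 fold change was 3.06 ± 0.97 (SE, adjusted p = 0.0301, edgeR). Without matKO female 2, the library with the highest ectoplacental cone sum, it was 2.25 (adjusted p = 0.0769). The call was also lost without matKO male 1 (2.94, adjusted p = 0.0586) or WT female 4 (3.00, adjusted p = 0.0513), and the change was 3.65 without WT female 3. With those 3 matKO libraries left out it was 2.07 (adjusted p = 0.154, edgeR). Prl8a2 has paralogs in the prolactin family, and how reads matching several genes were counted is not given here, so its level and its change are uncertain to that extent.

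**Figure D3:**
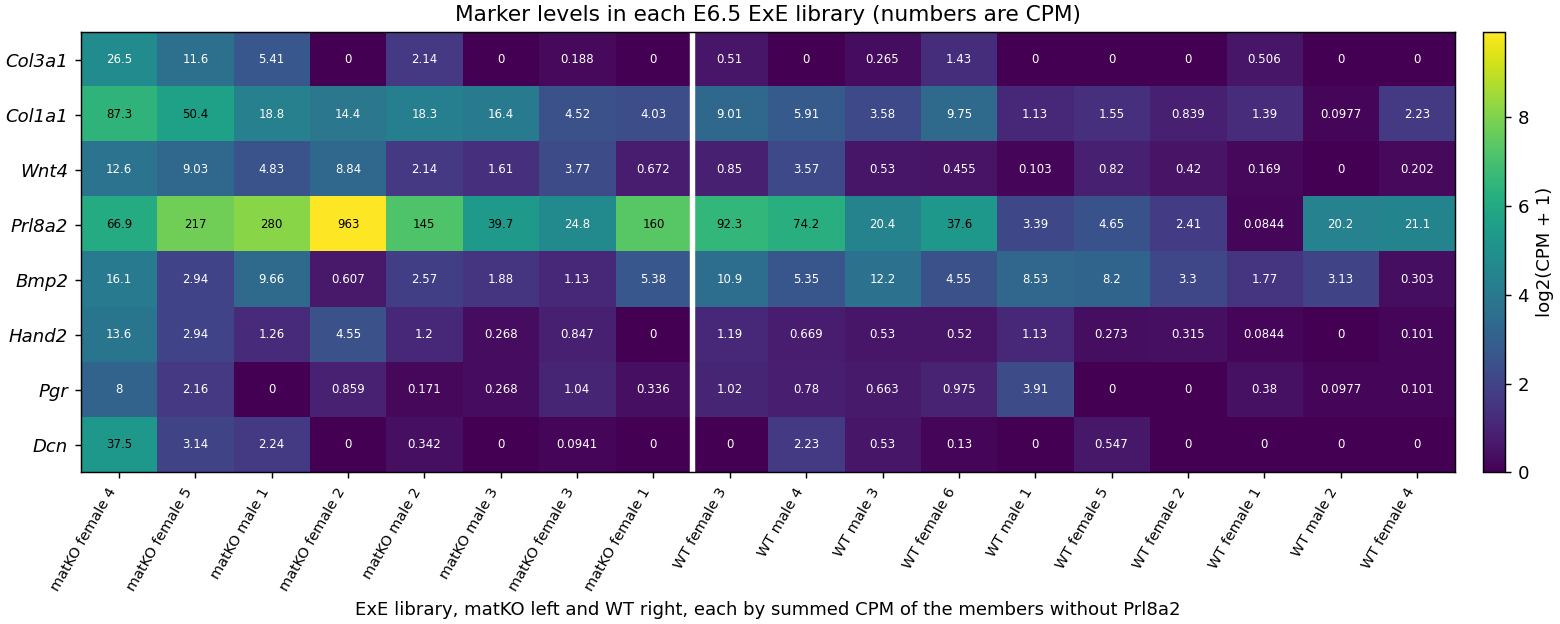
Level of each marker (rows) in each ExE library (columns), matKO left and WT right, each ordered by the summed CPM of the markers without Prl8a2. The colour gives log2(CPM + 1) and the printed numbers CPM. The matKO library female 4, at the far left, is the highest matKO library for 7 of the 8 markers, and Prl8a2 is highest in matKO female 2 at 963 CPM.

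The matKO library female 4 was the highest of the matKO libraries for all markers except Prl8a2. The high WT values were spread over more libraries: female 3 was highest for Hand2 and Prl8a2, female 6 for Col1a1 and Col3a1, male 4 for Dcn and Wnt4, male 1 for Pgr and male 3 for Bmp2. Summed over the 8 markers, libraries held 36.3 to 992 CPM in matKO (median 220) and 4.39 to 116 CPM in WT (median 23.8). Prl8a2 made up a median of 78.4% of this sum in matKO and 60.3% in WT. Without it, the sums were 10.4 to 202 CPM in matKO and 2.93 to 23.5 CPM in WT.

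Beyond the markers, 6 of 16 tested genes of fibrous matrix and stromal cells rose in matKO ExE and none fell, where 14.1% of all genes rose and 10.7% fell. The smallest p-values belonged to Thy1, a surface glycoprotein of fibroblasts and lymphocytes, Col6a2, a chain of collagen VI, Bgn, the proteoglycan biglycan, and Mgp, matrix Gla protein. Thy1 averaged 3.15 ± 2.49 CPM in matKO and 0.575 ± 0.384 CPM in WT (SD, n = 8 and 10), with a log2 fold change of 2.39. Col6a2 averaged 4.12 ± 4.83 CPM in matKO and 0.382 ± 0.565 CPM in WT (log2 fold change 3.51). A fall of Thy1 or Col6a2 from such low WT levels could hardly have been called. Bgn and Mgp changed by 2.84 and 2.92. Without the 3 matKO libraries that stood apart, 1 gene of the list rose (Thy1) and 1 fell (Fbln2), where 11.1% of all genes rose. The list's median log2 fold change was 1.12, and among its defining genes Lum, at 1.34 CPM in matKO and 0.0202 CPM in WT, was too low to be tested.

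Of the genes that regulate or mark decidualization, 5 of 17 tested rose and none fell, with a list median of 0.73. Among all genes, 14.1% rose and 10.7% fell. They were Aoc1, which encodes the histamine-degrading diamine oxidase, Prl3c1, a prolactin-family gene, Htra3, a serine protease gene, Esr1, the estrogen receptor alpha gene, and Alpl, the gene of tissue-nonspecific alkaline phosphatase. Aoc1 averaged 11.1 ± 7.82 CPM in matKO and 2.51 ± 2.30 CPM in WT (log2 fold change 2.13). Prl3c1, to which the same doubt over paralogs applies, averaged 6.74 ± 7.92 CPM in matKO and 0.455 ± 0.908 CPM in WT (4.12). Esr1, at a mean of 3.57 CPM in matKO and 0.316 CPM in WT, changed by 3.70, and Htra3, at 3.36 and 0.188 CPM in matKO and WT, by 4.25. With such low WT means, a fall of Prl3c1, Esr1 or Htra3 could hardly have been called. Leaving out the 3 matKO libraries, 2 of the 17 rose (Alpl and Fkbp4), a share near the 11.1% of all genes that rose in that fit. The summed list reached 662 to 1360 CPM in matKO and 474 to 863 CPM in WT libraries. Fkbp4 alone averaged 599 CPM in matKO and 420 CPM in WT, so the sum mostly reflects this gene.

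In the BMP and WNT pathways, the shares of called genes were near the 24.9% called among all genes. Of 17 tested BMP pathway genes, 1 rose and 4 fell. Id1, a transcriptional target of BMP signalling, averaged 280 ± 102 CPM in matKO and 123 ± 29.4 CPM in WT (log2 fold change 1.16), whereas its relative Id2 fell (-1.70), as did the receptor gene Bmpr1a (-1.05), the signal transducer gene Smad1 (-1.33) and the target gene Msx2 (-1.43). Of 18 tested WNT pathway genes, 2 rose and 2 fell. The ligand gene Wnt11 averaged 5.08 ± 4.15 CPM in matKO and 0.886 ± 0.949 CPM in WT (2.82), and the secreted antagonist gene Sfrp5 rose by 1.66. The receptor gene Fzd5 and Axin2, a target and feedback inhibitor of the pathway, fell by 1.86 and 1.25 on the log2 scale. In the fit without the 3 matKO libraries that stood apart, the same 5 BMP pathway genes passed, whereas in the WNT pathway Wnt7b rose and Fzd5, Fzd4 and Rspo3 fell.

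Markers of other cell types were read against the same background. Of 7 tested endothelial genes, 4 rose (Pecam1, Esam, Tie1 and Emcn) and 1 fell (Kdr, the main VEGF receptor gene, log2 fold change -2.54), and their sum was 8.59 to 184 CPM in matKO and 5.33 to 69.3 CPM in WT. Of 12 leukocyte genes, 4 could be tested and 2 rose: Cd68 and Csf1r, both known from macrophages. Their list summed to 9.49 to 38.1 CPM in matKO and 2.36 to 9.81 CPM in WT, with Ncr1 at 0 in every library and Ptprc, the pan-leukocyte gene, at 0.190 CPM in matKO and 0.0234 CPM in WT. The 4 uterine epithelial genes stayed low, at 0 to 4.37 CPM in matKO and 0 to 3.04 CPM in WT, with Wnt7a at 0 in every library, and the 1 that could be tested did not pass. Without the 3 matKO libraries that stood apart, Pecam1, Esam and Cd68 rose and no other gene of these 3 lists passed. The part of these cell types in the marker results was not tested.

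Among trophoblast and embryonic lists, the ectoplacental cone and early mesoderm lists had more called genes than the 24.9% of all genes, and the ExE, primitive endoderm and epiblast lists had shares near or below it. Of 6 tested genes of ectoplacental cone and giant cells, 4 rose (Hand1, Prl3d1, Phlda2 and Plac1), with list sums of 279 to 8440 CPM in matKO and 113 to 689 CPM in WT. Prl3d1 has close paralogs whose reads the counting could split, so its log2 fold change of 5.80 is uncertain. Of the 8 ExE genes Ets2 rose (0.83) and Fgfr2 fell (-0.96). In the primitive endoderm list 1 of 11 rose (Gata6, 1.51), with sums of 2340 to 15900 CPM in matKO and 887 to 4300 CPM in WT. In the early mesoderm list 3 of 8 fell (Foxf1, Mesp1 and Evx1), with sums of 27.2 to 116 CPM in matKO and 23.2 to 634 CPM in WT. Without WT male 1, the library at 634 CPM, Mesp1 and Foxf1 fell and Evx1 did not pass, and without that library and the 3 matKO libraries no gene of this list passed. In the epiblast list 1 of 8 rose (Utf1, 2.47), with sums of 268 to 2130 CPM in matKO and 329 to 1150 CPM in WT. Amhr2 alone rose among 9 tested granulosa genes, and Zp3 and Ooep among 4 tested oocyte genes, of which Ooep did not pass without WT male 1. Without the 3 matKO libraries that stood apart, the same 4 ectoplacental cone genes, Ets2, Utf1, Pou3f1, Pou5f1, Fgf8, Amhr2 and Zp3 rose and Foxf1 fell, and no other gene of these lists passed. The part of these lists in the marker results was not tested.

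Within each genotype, correlations of marker pairs across ExE libraries were mostly above 0, and few passed the test. Of 28 gene pairs in matKO, 25 had a Spearman rho above 0 (median 0.52), and 26 of 28 did in WT (median 0.48). The pairs of a genotype share their libraries, so they are not independent. P-values came from permutation of the pairings, two-sided and adjusted over the 56 pairs of both genotypes. In matKO 2 pairs passed, and in WT none did, where 6 pairs had an unadjusted p under 0.05 and the smallest adjusted p was 0.0875.

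The 2 pairs that passed in matKO were a matrix pair and a regulator pair. Col3a1 and Dcn had r = 0.95 and rho = 1.00 over 8 libraries (exact permutation p = 0.000149 for both, adjusted p = 0.00833). Both genes had no count in the same 3 libraries, female 1, female 2 and male 3. Without the 2 libraries farthest from the median of Col3a1, r was 0.95. Wnt4 and Hand2 had r = 0.95 and rho = 0.95 over 8 libraries (exact permutation p = 0.000322 and 0.00114, adjusted p = 0.00903 and 0.0319). Without the 2 libraries farthest from the median of Wnt4, r was 0.90. With only 6 libraries left, no pair passed the adjusted test, and 1 pair alone could not have passed it, whatever its correlation. In WT the same pairs had rho = -0.02 for Col3a1 with Dcn and 0.56 for Wnt4 with Hand2, over 10 libraries. Whether the genotypes differ in these correlations was not tested.

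**Figure D4:**
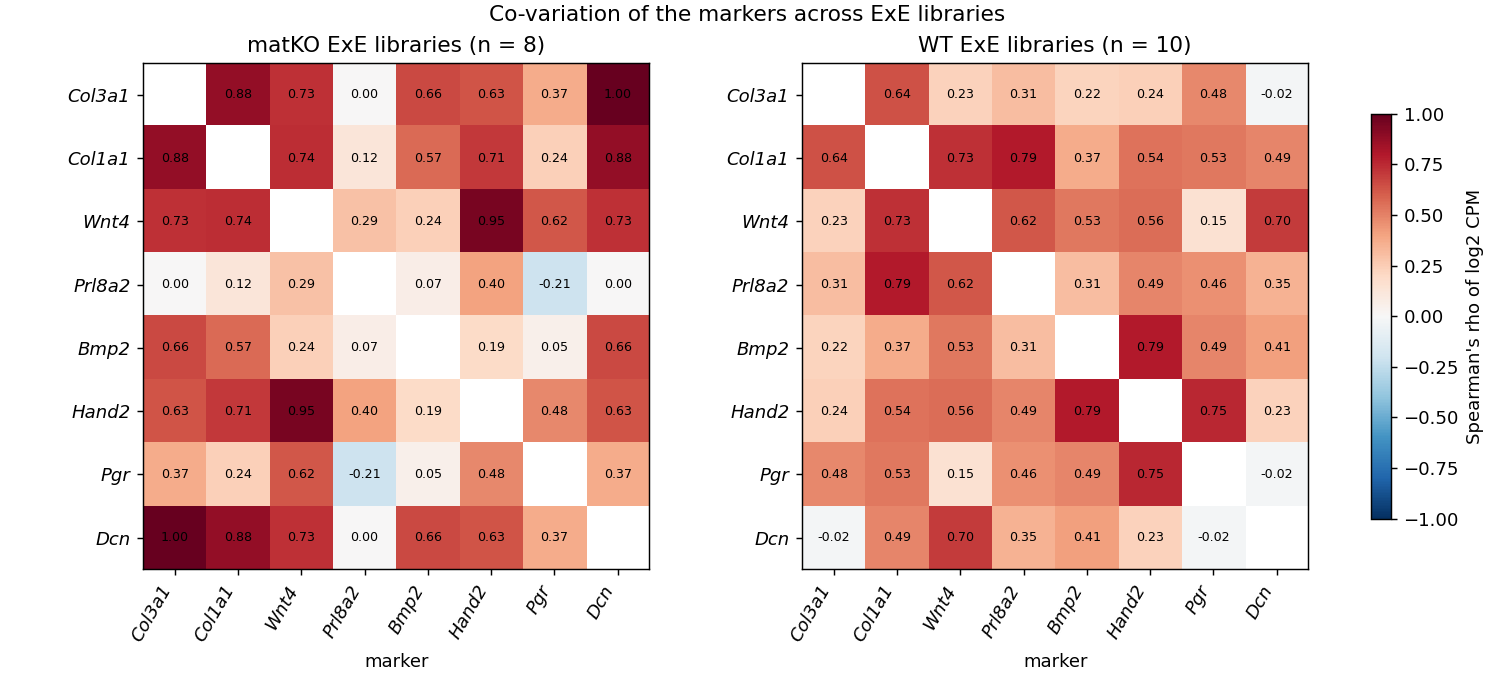
Spearman's rho of log2 CPM for each pair of markers across the 8 matKO ExE libraries (left) and the 10 WT ExE libraries (right), coloured from -1 in blue to 1 in red. In matKO the row of Prl8a2 is pale, with rho between -0.21 and 0.40, and the darkest cells are Col3a1 with Dcn and Wnt4 with Hand2.

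Prl8a2 was the marker least like the others in matKO ExE, with a median rho of 0.07 against the other 7 and a range from -0.21 to 0.40. In WT its median rho was 0.46, and its rho with Col1a1 of 0.79 (permutation p = 0.00938, adjusted p = 0.0875) was among the largest there. Bmp2 also stood low in matKO (median 0.24), with its largest values against Col3a1 and Dcn, both 0.66. Col1a1 (0.71) and Wnt4 (0.73) had the largest medians in matKO.

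Genes outside the markers were ranked by the Spearman correlation of their log2 CPM with the mean of the standardised log2 CPM of the 8 markers, among genes of at least 5 CPM on average. Over the 8 matKO libraries, the nearest of 8839 genes were Enah, Ppp2r5c and Efemp2, at rho = 1. They were followed by Ly6a, Isca1, Tdo2, Fabp4 and Arap2 at 0.976. These genes were picked as the highest of all those ranked, over few libraries, so their rho values are a description. Among them, Tdo2, a tryptophan-degrading enzyme gene known from rodent decidua, ran from 1.34 to 118 CPM, and Efemp2, a gene of elastic fibre assembly, from 6.05 to 31.8 CPM. Ly6a, which encodes the surface antigen SCA-1, ran from 20.8 to 199.5 CPM. Between genotypes, Enah fell in matKO ExE (log2 fold change -0.78, adjusted p = 0.026, edgeR). Efemp2 (0.93, adjusted p = 0.039) and Ly6a (2.17, adjusted p = 0.029) rose. Ppp2r5c, Isca1, Tdo2, Fabp4 and Arap2 did not pass, Tdo2 with an adjusted p of 0.091. Over the 10 WT libraries, the nearest of 8715 genes were, in order, Pi4k2a, Eif4g3, Pcbp4, Atp6v1h, Tapbp, Tmem50a, Sass6 and Fggy, with rho between 0.83 and 0.77. No gene was on both lists.

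In oocytes the markers lay on the other side. All 6 that could be tested had lower fitted levels in matKO, but none passed the test, which called 0.0202% of 14838 genes, all 3 of them lower in matKO. Leaving out matKO female 1 left 1 called gene. Hand2 and Pgr were too low to be tested. The median log2 fold change was -2.01 over the 6 markers and 0.016 over all genes. Col1a1 and Bmp2 reached the count filter through their WT oocytes, so values below 0 were favoured for them in advance. This median and the shared direction of the 6 are thus a description. For 4 of the 6, Col3a1, Col1a1, Wnt4 and Dcn, all matKO libraries lay below all WT libraries. Groups set apart in this way, with matKO lower, were found for 3.96% of all genes.

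Dcn and Col3a1 were the most abundant matrix markers in oocytes. Col3a1 had 14.1, 4.13, 5.0 and 5.04 CPM in the 4 matKO oocytes, against 26.7, 39.6 and 26.1 CPM in the 3 WT oocytes. Its log2 fold change of -2.11 ± 0.46 had an unadjusted p of 0.000903 and an adjusted p of 0.763 in edgeR. DESeq2 gave the same value with an adjusted p of 0.00776, which passes the threshold; the range over the alternatives was 0.00776 to 0.768. Col1a1 had 2.91, 2.06, 0.682 and 0.388 CPM in matKO, against 5.35, 12.4 and 12.5 CPM in WT (log2 fold change -2.75 ± 0.71, adjusted p = 0.763, edgeR). Dcn had 14.5, 16.0, 5.23 and 0.504 CPM in matKO, against 25.4, 52.8 and 23.9 CPM in WT (-1.93 ± 0.81, adjusted p = 0.785, edgeR). For each of these matrix genes the highest matKO oocyte stayed under the lowest WT oocyte.

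Wnt4 had 2.78, 4.88, 4.78 and 1.01 CPM in matKO oocytes, against 9.26, 7.36 and 25.1 CPM in WT oocytes (log2 fold change -2.08 ± 0.63, adjusted p = 0.763, edgeR). Bmp2 was near 1 CPM, with 1.29, 0.375, 0.455 and 0 CPM in matKO and 1.58, 0.898 and 1.15 CPM in WT. Prl8a2 had 4.47, 0, 4.44 and 19.9 CPM in matKO, against 6.40, 16.2 and 37.1 CPM in WT. The groups overlapped for both genes, with log2 fold changes of -1.17 ± 1.21 and -1.43 ± 1.00 (adjusted p = 0.915 and 0.873, edgeR). Hand2 had 2 counts in 1 oocyte of each genotype. Pgr had 8 counts in 1 WT oocyte and none in the 4 matKO oocytes, where 3 counts over the group would be 0.0542 CPM.

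No gene of the other lists passed in oocytes except Cyp11a1, the enzyme gene that starts steroid synthesis and a granulosa marker, which averaged 58.7 ± 9.83 CPM in matKO and 262 ± 64.8 CPM in WT (log2 fold change -2.16, adjusted p = 0.0068, edgeR). The granulosa list as a whole summed to 917 to 3470 CPM in matKO and 1360 to 2820 CPM in WT, with a median log2 fold change of 0.39. The fibrous matrix list had a median of -0.82 over 16 tested genes, with sums of 106 to 206 CPM in matKO and 170 to 205 CPM in WT. The sums of both lists overlapped between the genotypes. The sum of the 8 markers, at 20.6 to 40.2 CPM in matKO and 74.6 to 129 CPM in WT, did not. In matKO 2-cell embryos, which had no Cyp11a1 count, the granulosa list still summed to 313 to 715 CPM. Its sum thus need not follow the number of granulosa cells. In leukocyte genes the sums were 40.5 to 155 CPM in matKO and 102 to 160 CPM in WT. The part of cells other than the oocyte in the marker results was not tested.

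In 2-cell embryos, 5 markers could be tested and none passed, at a background of 0.731% of 14506 genes called. Leaving out single embryos gave between 46 and 258 called genes at this stage, and no marker among them. Bmp2, Hand2 and Pgr were too low, with 0, 2 and 0 counts over all 12 matKO embryos and 7, 2 and 8 counts over the 11 WT embryos. The median log2 fold change of the 5 was -2.36, and that of all genes 0.019. Because Col3a1, Wnt4 and Dcn reached the count filter through their WT embryos, values below 0 were favoured for them in advance. The median of the 5 is thus a description. Wnt4 had counts in 1 of 12 matKO embryos (2.12 CPM) and in 6 of 11 WT embryos (0 through a median of 2.95 to 8.93 CPM). Its log2 fold change was -4.12 ± 1.40 (adjusted p = 0.158, edgeR). Without matKO male 1, the one matKO embryo with counts, the fitted value was -7.14, which then depends on the prior count. Col3a1 had counts in 4 of 12 matKO embryos and in 7 of 11 WT embryos, at up to 3.15 CPM in matKO and 29.4 CPM in WT, with medians of 0 and 1.17 CPM (-3.52 ± 1.17, adjusted p = 0.149, edgeR). Leaving out WT female 4 gave -2.45 and leaving out matKO female 4 gave -4.70. The high Col3a1 value in WT came from female 4, which was also the WT embryo highest in Wnt4, Dcn, Bmp2 and Hand2.

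Dcn ranged from 0 through 0.572 to 3.83 CPM in matKO 2-cell embryos and from 0 through 3.54 to 12.5 CPM in WT (log2 fold change -2.36 ± 1.02, adjusted p = 0.286, edgeR). Col1a1 ranged from 0 through 0 to 16.6 CPM in matKO and from 0 through 1.63 to 11.1 CPM in WT (-1.27 ± 1.13, adjusted p = 0.645, edgeR; -2.01 without matKO female 4). The matKO embryo female 4 held 121 of the 169 Col1a1 counts of its group, and was also the matKO embryo highest in Col3a1 and Dcn. Prl8a2 was found in 11 of 12 matKO and 10 of 11 WT embryos, from 0 through 11.1 to 45.7 CPM in matKO and from 0 through 7.76 to 32.4 CPM in WT. Its log2 fold change was 0.17 ± 0.76 (adjusted p = 0.946, edgeR), and its sign changed under some alternatives. Prl8a2 made up a median of 91.6% of the summed marker counts in matKO embryos.

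Beside the markers, 4 of 11 tested granulosa genes fell in matKO 2-cell embryos, where 0.421% of all genes fell. They were Cyp11a1, the steroid dehydrogenase gene Hsd3b1, the inhibin subunit gene Inha and the luteinising hormone receptor gene Lhcgr. Cyp11a1 had no count in the 12 matKO embryos and averaged 105 ± 109 CPM in the 11 WT embryos, and Hsd3b1 averaged 0.0687 ± 0.134 CPM in matKO and 202 ± 262 CPM in WT. Both reached the count filter through WT embryos, so a fall was favoured for them in advance. The count of 4 is thus a description. The granulosa list summed to 313 to 715 CPM in matKO and 496 to 2010 CPM in WT, where female 4, the WT embryo with the largest marker sum (87.9 CPM), also had the largest granulosa sum. The leukocyte genes summed to 6.67 through a median of 16.4 to 3030 CPM in matKO and to at most 48.1 CPM in WT. Hand1 alone fell in the ectoplacental cone list, and Gdf9 rose in the oocyte list. No gene of the remaining lists passed. The part of granulosa cells in the marker results was not tested.

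In blastocysts none of the 8 markers was abundant enough to be tested, among 13445 genes of which 6.3% were called. Hand2 had no count in any of the 28 blastocysts, which allows up to 0.0147 CPM over the matKO group and 0.0107 CPM over the WT group at 3 counts. Col3a1 had 8 counts in 1 matKO blastocyst and none in WT, and Prl8a2 had none in matKO and 3 in 1 WT blastocyst. Pgr was found in 3 of 14 matKO and 5 of 14 WT blastocysts, at up to 4.93 CPM (117 counts) in matKO male 2 and 2.31 CPM in WT female 3. Wnt4 was found in 5 of 14 matKO and 3 of 14 WT blastocysts, at up to 2.39 and 1.30 CPM. The sum of all 8 markers was at most 5.35 CPM in matKO and 2.47 CPM in WT, below every oocyte of either genotype.

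Across stages, 4 markers had their highest group mean in matKO ExE (Prl8a2, Col1a1, Hand2 and Pgr), 3 in WT oocytes (Col3a1, Dcn and Wnt4) and Bmp2 in WT ExE. Only for Col3a1 and Dcn did the highest mean exceed the next by more than the larger SD. For Prl8a2 the order of mean levels was matKO ExE (237 ± 306 CPM), WT ExE (27.7 ± 31.8), WT oocytes (19.9 ± 15.7), matKO 2-cell embryos (12.9 ± 13.5), WT 2-cell embryos (10.6 ± 10.2) and matKO oocytes (7.20 ± 8.72), all ± SD, and both blastocyst groups were last. No neighbours in that order differed by more than the larger SD. For Col3a1, matKO oocytes (7.07 ± 4.71 CPM) stood below WT oocytes (30.8 ± 7.61 CPM) by more than the larger SD, and for Dcn matKO oocytes (9.04 ± 7.41 CPM) stood below WT oocytes (34 ± 16.3 CPM) in the same way. After these, matKO ExE (5.73 ± 9.32 CPM for Col3a1) and WT 2-cell embryos (5.17 ± 8.66 CPM) did not differ beyond their spread. Stages are separate tables, so these levels are set side by side without a test.

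No marker passed the test for a difference between the sexes in the genotype effect. Testing genotype by sex, edgeR called 0 of 14506 genes in 2-cell embryos, with 930 at an unadjusted p under 0.05, and 0 of 14156 in ExE, with 513. DESeq2 called 0 and 1 genes. The marker with the smallest p was Pgr in ExE, which averaged 2.48 ± 3.16 CPM in matKO females and 0.413 ± 0.474 CPM in WT females, and 0.147 ± 0.136 CPM in matKO males and 1.36 ± 1.72 CPM in WT males. The male minus female difference in its log2 fold change was -6.06 ± 2.05 (adjusted p = 0.999, edgeR).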

How the data were processed

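Polyadenylated RNA of single oocytes, embryos and ExE pieces was sequenced from libraries built with a DNA library kit with unique dual indexes, per the labels' protocols. The deposited tables, 1 for each stage, hold raw counts of reads per gene beside each gene's position and exonic length. The submitters' processing notes name Trim Galore, STAR, SAMtools, featureCounts and build mm10, with no tool versions. Annotation release, strand setting and treatment of multi-mapping reads were not given here. The tables hold 8 count columns with no matching sample, which were not used. Reads were not tied to molecules, so floors of 3 counts cover counting error only.

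Groups and sex came from the labels. Each stage was fitted apart with edgeR 4.0.16 in R 4.3.3: filterByExpr (minimum count 10), TMM, estimateDisp, glmQLFit (robust, legacy=TRUE) and glmQLFTest, with terms for sex and, in blastocysts, library prefix. Benjamini-Hochberg adjustment ran over all genes tested at a stage, and adjusted p under 0.05 was the threshold. The F statistic gave standard errors. Genes were compared with each other only per kilobase of the deposited length. Correlations used log2 CPM with a prior count of 2, within a genotype, with exact permutation for the 8 matKO libraries and 100000 permutations for the 10 WT libraries. The fits were also run on counts simulated without prefix effects or libraries that stand apart. Those outcomes are not given here. Alternatives were DESeq2 1.42.0, its size factors, no filter, no sex term, a replicate block, legacy=FALSE, no prefix term or a single prefix, and single libraries left out.

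Markers and gene lists were chosen with earlier results of these data known. From each list, the called genes of smallest p at a stage, 4 at most, are named; others were named after their values were seen. No libraries of a group agreed within sampling noise. Numbers of replicates did not pair libraries.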

Additional observations from a re-analysis of the deposited data

Results flagged for a closer look

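Single libraries lay far above the rest of their group for 11 of 24 combinations of marker and group with 4 to 10 libraries, by the gap to the next library as a share of the group's range. The rule assumes that chance gives this in about 1 in 20 groups. That rate was not computed for CPM values, which are skewed and in part rest on few or no counts. The 11 of 24 is therefore a description and was not tested against chance. Values of 1 library recur among the 11. All were at the high end.

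The matKO ExE library female 4 accounted for 4 of them. It had 26.5 CPM of Col3a1 (next highest 11.6), 13.6 CPM of Hand2 (next 4.55), 8.0 CPM of Pgr (next 2.16) and 37.5 CPM of Dcn (next 3.14). The matKO ExE library female 2 had 963 CPM of Prl8a2, from 19044 counts, with the next highest matKO library at 280 CPM.

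Among WT ExE libraries, male 4 had 3.57 CPM of Wnt4 (32 counts) and 2.23 CPM of Dcn (20 counts). Female 6 had 1.43 CPM of Col3a1 (22 counts) and male 1 had 3.91 CPM of Pgr (38 counts). In oocytes, matKO female 1 had 14.1 CPM of Col3a1, with the next highest matKO oocyte at 5.04 CPM, and 0.129 CPM of Hand2, which is 2 counts.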

How the results depend on the processing

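The markers called in ExE depended on the setting, and all fits placed the 5 called markers higher in matKO. Col3a1, Col1a1 and Wnt4 were called in each of the 18 fits that left out 1 ExE library, Prl8a2 in 15 and Hand2 in 12. With legacy=FALSE or no sex term, 6 markers were called, Dcn with adjusted p = 0.0056 and 0.0358 (edgeR). Without a count filter Prl8a2 was not called (adjusted p = 0.0526). Replicate numbers did not pair libraries: deviations of same-numbered libraries correlated at -0.34 to 0.09 in ExE, -0.17 to 0.12 in oocytes, -0.16 to 0.26 in 2-cell embryos and -0.08 to 0.4 in blastocysts, and 1 of 8, 2 of 3, 3 of 11 and 3 of 13 correlated best with their own number. The replicate block, in which unpaired libraries carry no weight, gave 2519 called genes in ExE (as reported 3520), 1 in oocytes (as reported 3), 14 in 2-cell embryos (as reported 106) and 427 in blastocysts (as reported 847). In ExE it left Col1a1 and Wnt4 called.

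DESeq2 called 36 genes in oocytes, 693 in 2-cell embryos and 1336 in blastocysts, and legacy=FALSE called 454 in 2-cell embryos and 1796 in blastocysts. Without the 3 ExE matKO libraries and WT male 1 together, 2244 genes were called in ExE, where fewer libraries were fitted. Within prefix D707T, 140 genes were called in blastocysts. For genotype by sex, DESeq2 called 4 genes in blastocysts (as reported 1) and 1 in ExE (as reported 0). Leaving out 1 library gave 1 to 4 called genes in oocytes and 46 to 258 in 2-cell embryos. There the count moved over 1.5 times without WT female 1, 2 or 5, any WT male but 1, matKO female 1, 4 or 6, or any matKO male but 4. The sign of Prl8a2 in 2-cell embryos turned with legacy=FALSE (-0.10), with the replicate block (-0.17) and without 1 library (-0.12 to 0.48). With 1 library left out, Bmp2 in ExE ran from -0.83 to 0.08 and Pgr in ExE from -0.03 to 1.59. Correlated pairs in matKO fell to 0 with 2 libraries left out, where 6 remain. With 6 libraries 1 pair alone cannot pass the adjusted test, whatever its correlation, so this loss does not show a dependence on single libraries. The other causes were not tested. Blastocysts could not be tested for the markers, whose counts were too low.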
